A study of Mus musculus with 4 samples.

Results

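Glycolysis turns glucose into pyruvate in the cytosol, and T cells that divide and become effector cells are known to raise their use of it. The 10 genes described here encode enzymes that cleave and convert sugar phosphates (Aldoa, Tpi1, Gapdh, Pgk1, Pgam1, Eno1, Pkm), the lactate dehydrogenase subunit A that turns pyruvate into lactate (Ldha), and a pair of glucose transporters of the plasma membrane (Slc2a1, known as GLUT1, and Slc2a3, known as GLUT3). They were chosen by name, 10 of the 27998 genes in the deposited tables, and their levels were read in 5299 of the 5434 deposited cells, those with at least 200 genes found. A level here is the number of unique molecular identifiers (UMIs, each standing for 1 captured transcript) per 10000 UMIs of the same class of cells, with mitochondrial, ribosomal protein and hemoglobin genes left out of both. Messenger RNA was measured, so enzyme activity and glucose use are not known from these values.

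The study asked how agonism of the costimulatory receptor OX40 changes the T cells that respond to blockade of the checkpoint ligand PD-L1. All groups were C57BL/6 mice, 6 to 8 weeks old at the start, that carried MC-38 colorectal tumor cells injected under the skin, and T cells were enriched from blood by 2 rounds of magnetic isolation on day 18. The untreated group received no antibody. The anti-PD-L1 group received 150 µg of antibody on days 10, 13 and 17. Another label reads OX40 only, and by the study's regimen these mice had 150 µg of anti-OX40 with 25 µg of CpG, a ligand of Toll-like receptor 9, on day 7 (called anti-OX40/CpG here). PDOX was the sequence of both treatments. Each group was 1 library with no replicate, so treatment, library and the mice behind it cannot be told apart. The kept cells numbered 784 in the untreated library, 1446 with anti-PD-L1, 1559 after anti-OX40/CpG and 1510 with PDOX, with median depths of 1434.5 to 1618 UMIs. The 10 genes together took 0.347% to 0.392% of the counted UMIs. Hemoglobin genes held 7.99% of all deposited UMIs in the untreated library and 0.344% to 1.70% in the other libraries. Between 1 and 6 cell barcodes, 16 in all, were shared by each pair of libraries.

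Cells were classed from marker genes. T cells (4676) carried Cd3 UMIs, of which 2051 had Cd8a or Cd8b1 UMIs without Cd4 (CD8) and 846 had Cd4 UMIs without these (CD4). Another 1551 had neither and 228 both, and these were left unclassed. Naive and effector cells were told apart by the share of UMIs from 10 effector genes (such as S100a4, Gzmb and Ccl5) against 7 naive genes (such as Ccr7 and Lef1), with naive at a share of at most 0.3 and effector at least 0.7. The median CD8 effector cell held 101 UMIs of the effector list and 1 of the naive list, and the median CD8 naive cell held 1 and 9. The split is a range and not a cell type: 298 CD8 cells had a share between 0.2 and 0.4, and 83 had a share between 0.6 and 0.8. In the order just given, with the untreated library first and PDOX last, there were 196, 376, 300 and 115 CD8 naive cells and 25, 94, 196 and 252 CD8 effector cells. The CD4 naive cells numbered 70, 123, 135 and 78, and the CD4 effector cells 7, 15, 77 and 169. None of the 10 genes is in a marker list.

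Promoter windows are shown for the 4 genes on which the results below turn most: Gapdh, Tpi1 and Pgk1, whose levels moved with cell state or library, and Ldha, which was not called between T cell states. Transcription of many glycolysis genes is known to be driven by the hypoxia-inducible factor HIF-1, which binds ACGTG and GCGTG, and by Myc, which binds CACGTG. Each window is the 250 bases before the listed transcription start (RefSeq, build GRCm38.p6), 5′ to 3′ on the gene's strand, with ACGTG or GCGTG on either strand in capitals, so that a match on the opposite strand reads CACGT or CACGC. The Gapdh window lies at chr6:125165774-125166023 on the minus strand, the Tpi1 window at chr6:124814159-124814408 on the minus strand, the Ldha window at chr7:46845554-46845803 on the plus strand and the Pgk1 window at chrX:106186850-106187099 on the plus strand.
Gapdh: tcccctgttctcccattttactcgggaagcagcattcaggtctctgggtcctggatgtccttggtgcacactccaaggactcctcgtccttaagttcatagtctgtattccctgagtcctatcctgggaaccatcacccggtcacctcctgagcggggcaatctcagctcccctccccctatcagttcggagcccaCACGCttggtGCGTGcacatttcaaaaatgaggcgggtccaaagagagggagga
Tpi1: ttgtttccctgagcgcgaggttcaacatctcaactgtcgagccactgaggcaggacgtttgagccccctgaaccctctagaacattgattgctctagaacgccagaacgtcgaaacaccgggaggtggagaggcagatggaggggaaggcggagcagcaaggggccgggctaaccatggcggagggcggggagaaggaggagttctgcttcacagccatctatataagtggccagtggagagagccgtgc
Ldha: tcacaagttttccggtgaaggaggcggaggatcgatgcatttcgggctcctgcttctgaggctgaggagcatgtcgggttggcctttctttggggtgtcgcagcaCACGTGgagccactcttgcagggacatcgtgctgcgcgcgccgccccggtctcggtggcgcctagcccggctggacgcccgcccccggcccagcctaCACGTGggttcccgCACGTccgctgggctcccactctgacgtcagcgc
Pgk1: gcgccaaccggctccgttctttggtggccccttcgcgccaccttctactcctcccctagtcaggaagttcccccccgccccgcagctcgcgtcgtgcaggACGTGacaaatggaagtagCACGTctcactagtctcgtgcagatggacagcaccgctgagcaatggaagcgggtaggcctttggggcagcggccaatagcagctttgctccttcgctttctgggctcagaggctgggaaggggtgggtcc

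The Gapdh window held 2 matches of GCGTG, the Pgk1 window 2 of ACGTG, and the Tpi1 window none. The Ldha window shown held 5 matches of ACGTG, among them both strands of 2 copies of CACGTG. That palindrome contains ACGTG whichever way it is read. Ldha has another listed window, at chr7:46846832-46847081 on the plus strand, with 1 match of GCGTG and 0 of ACGTG and CACGTG. Of the 10 genes, 9 had an entry, with 15 windows in all, and Slc2a3 had none. At least 1 match of ACGTG or GCGTG was found in 12 of the 15 windows, against 38.6% of all 32851 windows of this length. CACGTG was found in 1 of the 15 windows, against 6.02% of all windows. The genes themselves lie at chr6:125161852-125166467 (Gapdh), chr6:124810586-124814158 (Tpi1), chr7:46842274-46855627 (Ldha) and chrX:106187100-106203699 (Pgk1) in the same build. The others lie at chr4:119108745-119137330 (Slc2a1), chr6:122727809-122802363 (Slc2a3), chr7:126795234-126800994 (Aldoa), chr19:41911871-41918665 (Pgam1), chr4:150236708-150248879 (Eno1) and chr9:59656576-59679372 (Pkm). A match describes the letters of the window and does not show that a factor bound there.

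The 10 genes were captured very unequally. Aldoa, Gapdh, Eno1, Pkm and Ldha gave 4569 to 9688 UMIs each and were found in 49.9% to 68.6% of the kept cells. Pgk1, Tpi1 and Pgam1 gave 623 to 1061 UMIs and were found in 10.2% to 16.1% of cells, and Slc2a3 and Slc2a1 gave 241 and 123 UMIs in 4.13% and 2.25% of cells. These UMIs are not corrected for transcript length or capture, so they do not order the genes by abundance. At this depth a cell without a UMI is not shown to lack the transcript, and the part of free RNA in these UMIs was not tested. Reads that also match near-identical copies may have been split: Eno1b gave 28 to 55 UMIs a library, Pgk1-rs7 gave 5 to 11, and Aldoart1 at most 4, so the levels of Eno1, Pgk1 and Aldoa carry that uncertainty.

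Fitted over the 4 libraries, CD8 effector cells held more Gapdh, Tpi1, Pgam1 and Slc2a3 transcripts than CD8 naive cells. In that fit Aldoa, Eno1, Pkm, Ldha and Pgk1 were not called. Pgam1 was not higher in the PDOX library, nor Slc2a3 in the untreated library. Summed over the 10 genes, the level was 33.0, 33.3, 30.7 and 33.5 UMIs per 10000 in the naive cells of the 4 libraries, listed here and throughout as untreated, then anti-PD-L1, then anti-OX40/CpG, then PDOX. In the effector cells the sum was 32.8, 46.1, 33.1 and 39.9. The naive sums lay close together. The ratio of effector to naive was 0.992, 1.38, 1.08 and 1.19, so the rise was largest in the anti-PD-L1 and PDOX libraries. These sums pool all UMIs of a class, so cells with more UMIs weigh more. The median level per cell was 30.4, 30.9, 29.3 and 29.8 in naive and 26.9, 39.8, 26.5 and 35.7 in effector cells. By that median only the anti-PD-L1 and PDOX libraries showed a rise. In the anti-PD-L1 library, effector T cells with UMIs of the division genes Mki67 or Top2a (18 cells, both lineages) had a sum of 68.0. The 91 other effector T cells of that library had a sum of 39.4. All 27 T cells of that library with UMIs of the division genes had a pooled sum of 62.6 and a median level per cell of 47.0.

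**Figure D1:**
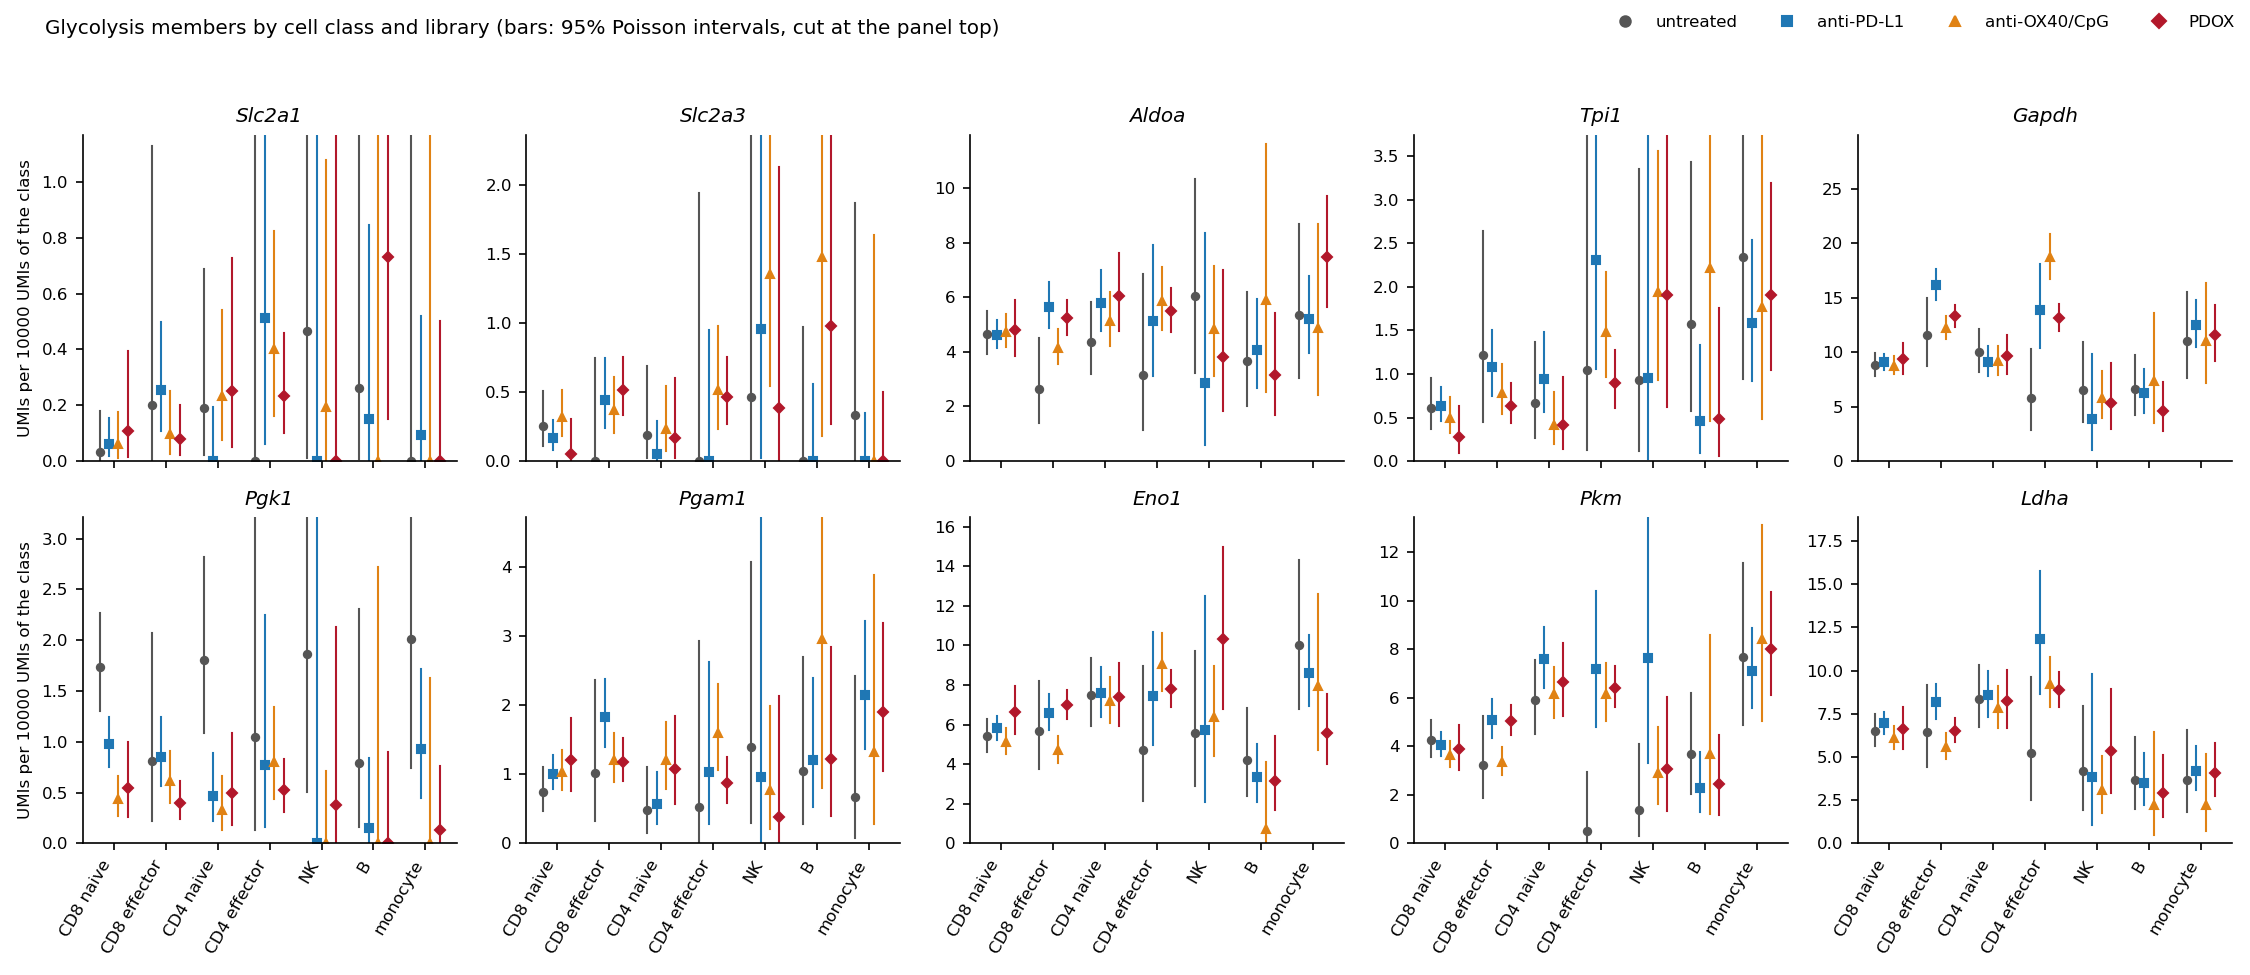
Level of each of the 10 genes (UMIs per 10000 UMIs of the class) in the CD8 and CD4 naive and effector classes and the NK, B and monocyte gates, with 1 point per library and bars for the 95% exact Poisson interval (counting error only, cut at the panel top). Gapdh in CD8 cells lies at 8.76 to 9.37 in the naive and at 11.5 to 16.1 in the effector classes.

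Gapdh encodes the dehydrogenase that opens the energy-yielding steps of the pathway. Its level was 8.81, 9.07, 8.76 and 9.37 UMIs per 10000 in CD8 naive cells and 11.5, 16.1, 12.2 and 13.3 in CD8 effector cells. All 4 effector values lay above all 4 naive values. In a fit with library as a term (edgeR's quasi-likelihood test, Benjamini-Hochberg adjustment over 4904 genes), the log2 fold change was 0.67 (SE 0.12, n = 4 libraries, adjusted p = 1.7e-06), higher in 4 of 4 libraries.

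Tpi1 encodes triosephosphate isomerase, which interconverts the products of the aldolase reaction. Its level was 0.611, 0.631, 0.497 and 0.273 UMIs per 10000 in CD8 naive cells and 1.21, 1.08, 0.786 and 0.631 in CD8 effector cells. The effector level was above the naive level in each library, and the lowest effector value met the highest naive one. The log2 fold change was 0.92 (SE 0.24, n = 4 libraries, adjusted p = 0.0020 by the same edgeR fit), on 5 to 42 UMIs a class and library. Tpi1 was not called by DESeq2 (0.96, adjusted p = 0.075) or when cells were split by Id2 (0.41, edgeR adjusted p = 0.21).

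Slc2a3 and Slc2a1 rest on few UMIs. Slc2a3 gave 8, 11, 16 and 1 UMIs in CD8 naive cells and 0, 14, 15 and 26 in CD8 effector cells of the 4 libraries. As a level this was 0.257, 0.165, 0.318 and 0.0545 UMIs per 10000 in naive cells against 0, 0.443, 0.369 and 0.513 in effector cells, where the 0 UMIs of the 25 untreated effector cells allow up to 0.607. The groups overlapped, with the untreated library at the other end of the order. The log2 fold change of Slc2a3 was 1.01 (SE 0.36, n = 4 libraries, edgeR adjusted p = 0.029), higher in 3 of 4 libraries. Slc2a3 was not called by DESeq2 (adjusted p = 0.38) or when cells were split by Id2 (0.71, edgeR adjusted p = 0.14). Slc2a1 gave 1, 4, 3 and 2 UMIs in naive and 1, 8, 4 and 4 in effector CD8 cells and was below the filter on low counts.

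Pgam1 encodes a phosphoglycerate mutase, which moves the phosphate before the enolase step. Its level was 0.739, 1.01, 1.03 and 1.20 UMIs per 10000 in CD8 naive cells and 1.01, 1.83, 1.20 and 1.18 in CD8 effector cells, so the ranges overlapped and the PDOX library showed no rise on this scale. The fitted log2 fold change was 0.55 (SE 0.19, n = 4 libraries, edgeR adjusted p = 0.021). The Pgam1 call was also lost without cells over 2900 genes (0.39, edgeR adjusted p = 0.14), without the filter on low counts, without the library term, by DESeq2, by the Id2 split and after thinning. The fits left the class-defining genes out of the totals, and these held 3.30% to 7.39% of CD8 effector UMIs against 0.636% to 0.686% of CD8 naive UMIs. With them counted in, the log2 fold change of Pgam1 was 0.43 (edgeR adjusted p = 0.089) and that of Slc2a3 0.91 (edgeR adjusted p = 0.072), the median of all genes moved by -0.11, and 37.2% in place of 53.1% of the called genes were higher in effector cells.

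Of the 9 members tested between CD8 effector and naive cells, 4 were called higher and 0 lower, where 11.5% of the 4904 genes tested were called higher and 10.1% lower. The median log2 fold change was 0.23 over the 9 members and -0.01 over all genes tested. The 5 members not called had 95% intervals of -0.16 to 0.36 (Aldoa, the aldolase that splits the sugar), -0.53 to 0.42 (Pgk1, the kinase of the first ATP-forming step), -0.09 to 0.40 (Eno1, an enolase), -0.03 to 0.50 (Pkm, pyruvate kinase) and -0.11 to 0.38 (Ldha). Ldha, the gene of lactate formation, was at 6.53, 6.95, 6.10 and 6.60 UMIs per 10000 in naive and 6.48, 8.19, 5.60 and 6.53 in effector CD8 cells. Its anti-PD-L1 effector value was the only 1 above all naive values. When cells were split by Id2, Pkm (0.40, edgeR adjusted p = 0.0058) and Eno1 (0.29, edgeR adjusted p = 0.045) were called higher. Without the anti-PD-L1 library, Pgam1 and Slc2a3 were no longer called (log2 fold changes of 0.24 and 0.74) and 2 members remained, and without the PDOX library Slc2a3 was lost (0.69). Effector cells were also deeper, with a median of 1929 UMIs against 1689 in naive cells. With cells thinned to 750 UMIs, only 2344 genes and 6 members were tested, and 1 member was called higher. Gapdh was called in all 16 alternative settings run, at log2 fold changes of 0.42 to 0.74.

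CD4 cells showed Gapdh and Tpi1 higher in effector than in naive cells. The untreated library held only 7 CD4 effector cells and was left out of this fit. Gapdh was at 9.99, 9.10, 9.16 and 9.64 UMIs per 10000 in CD4 naive cells and at 5.77, 13.9, 18.7 and 13.2 in CD4 effector cells. In the 3 libraries tested every effector value was above every naive value, and the 7 untreated effector cells, with 11 UMIs, went the other way. The log2 fold change of Gapdh over the 3 libraries was 0.76 (SE 0.15, n = 3 libraries, edgeR adjusted p = 0.0014), higher in 3 of 3.

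Tpi1 was at 0.666, 0.941, 0.416 and 0.415 UMIs per 10000 in CD4 naive cells and at 1.05, 2.31, 1.48 and 0.900 in CD4 effector cells. The effector level was the higher one in each library, by 1.58, 2.46, 3.57 and 2.17 times. The UMIs behind these levels were 7, 18, 9 and 5 in naive and 2, 9, 26 and 31 in effector cells. The untreated ratio thus rests on 2 effector UMIs in 7 cells. The log2 fold change was 1.51 (SE 0.34, n = 3 libraries, edgeR adjusted p = 0.0043). Of the 7 members tested, these 2 were called higher and 0 lower, where 7.75% of 3163 genes were called higher and 6.99% lower. Neither was called when the anti-OX40/CpG library was left out (log2 fold changes of 0.62 for Gapdh and 1.31 for Tpi1), and 53 in place of 466 genes were. Both were also lost by DESeq2 (adjusted p = 0.087 for Gapdh and 0.11 for Tpi1) and when cells were split by Id2, and Tpi1 without the library term.

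The other 5 members tested in CD4 cells were not called. Aldoa had a log2 fold change of 0.03, Pkm of 0.01, Eno1 of 0.20, Pgam1 of 0.23 and Ldha of 0.30 with a 95% interval of -0.02 to 0.63. Slc2a1, Slc2a3 and Pgk1 were too sparse in CD4 cells to be tested. Slc2a3 gave 2, 1, 5 and 2 UMIs in CD4 naive and 0, 0, 9 and 16 in CD4 effector cells.

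**Figure D2:**
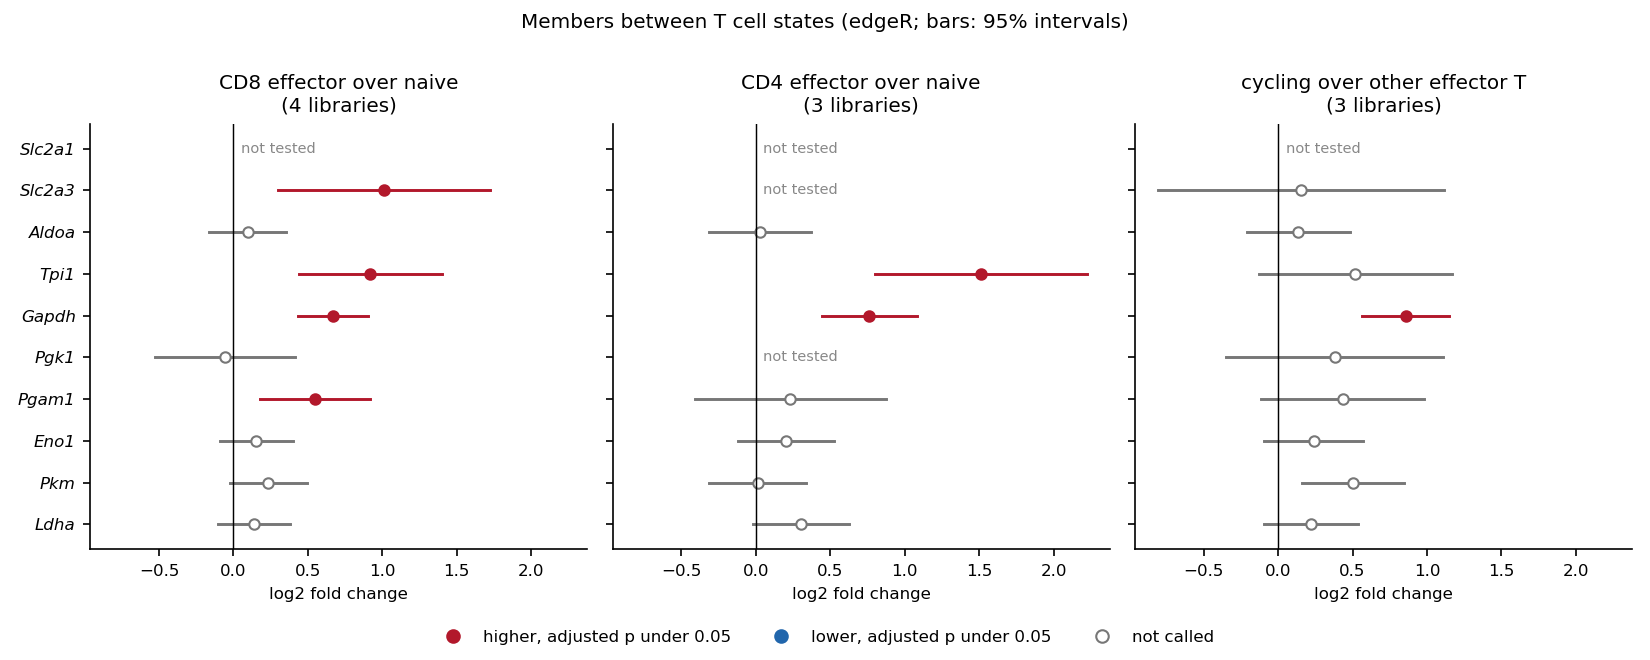
Log2 fold changes with 95% intervals of the members in CD8 effector against naive, CD4 effector against naive and cycling against other effector T cells, from edgeR fits over 4, 3 and 3 libraries. Gapdh lies above 0 in all 3 comparisons, at 0.67, 0.76 and 0.86, while Aldoa, Eno1 and Ldha have intervals that span 0.

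The change from naive to effector cells did not differ detectably between CD8 and CD4. None of the 9 members tested for the difference was called by edgeR's quasi-likelihood test, where 0.348% of 4884 genes were, and 0 members and 342 genes had an unadjusted p under 0.05. DESeq2 called 0 members. The difference, CD8 minus CD4, was -0.02 for Gapdh (95% interval -0.40 to 0.36) and -0.59 for Tpi1 (-1.44 to 0.27). These intervals leave room for differences of the size of the changes themselves.

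Naive CD4 cells held a higher summed level of the members than naive CD8 cells of the same blood. The sum was 39.5, 40.7, 37.8 and 40.4 UMIs per 10000 in CD4 naive against 33.0, 33.3, 30.7 and 33.5 in CD8 naive cells, a ratio of 1.19, 1.22, 1.23 and 1.21. The 4 CD4 values lay above the 4 CD8 values. Pkm, whose product makes pyruvate, was at 5.90, 7.58, 6.15 and 6.65 in CD4 naive and at 4.28, 4.06, 3.64 and 3.87 in CD8 naive cells, and the ratio was 1.38 to 1.87. Ldha was 1.23 to 1.28 times and Eno1 1.11 to 1.39 times higher, whereas the Gapdh ratios of 1.003 to 1.13 had counting intervals that all held 1. Between 2 and 4 members a library went the other way, such as Pgk1 in the anti-PD-L1 library (0.470 in CD4 naive and 0.977 in CD8 naive cells, ratio 0.481, 95% interval 0.211 to 0.971). This comparison was read from the levels and not tested.

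Of the other genes of glucose metabolism that were tested between these states, 3 were called. Among 22 further genes of glycolysis and lactate transport, 4 passed the filter on low counts in CD8 cells and 1 was called: Pfkp, a phosphofructokinase, was at 0.482, 0.466, 0.457 and 0.545 UMIs per 10000 in naive and 0.809, 0.917, 0.762 and 0.888 in effector cells. All effector values of Pfkp were above all naive values (log2 fold change 0.92, SE 0.25, n = 4 libraries, edgeR adjusted p = 0.0024). These values rest on 15, 31, 23 and 10 UMIs in naive and 4, 29, 31 and 45 in effector cells. The share of all genes that separate in this way was not computed. Pfkp was not called without the anti-PD-L1 library (0.80, edgeR adjusted p = 0.057), by DESeq2 (adjusted p = 0.11) or when cells were split by Id2 (0.34, edgeR adjusted p = 0.30). In CD4 cells 3 of the 22 were tested and 0 called, with Pfkp at 1.08 (edgeR adjusted p = 0.077).

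Pdk1, a kinase that holds back the entry of pyruvate into the mitochondrial cycle, fell in both lineages. In CD8 cells it was at 1.58, 1.55, 1.83 and 1.20 UMIs per 10000 in naive and 0.809, 0.348, 0.541 and 0.217 in effector cells, with a log2 fold change of -1.83 (SE 0.23, edgeR adjusted p = 8e-12). In CD4 cells it was at 1.71, 2.51, 3.10 and 2.08 in naive cells, and the effector cells gave 0, 0, 4 and 11 UMIs (log2 fold change -3.18, edgeR adjusted p = 2.4e-06). No effector value of Pdk1 reached a naive value of its lineage, but the share of all genes that separate in this way was not computed. The CD8 effector values rest on 4, 11, 22 and 11 UMIs. Pdk1 was the only gene called among the 5 of 8 pyruvate entry genes tested in each lineage.

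Txnip, which is known to restrain glucose uptake, was at 3.12, 2.38, 3.08 and 2.40 in CD8 naive and 2.43, 0.949, 2.09 and 1.93 in CD8 effector cells, lower in effector cells of each library (log2 fold change -0.55, SE 0.15, edgeR adjusted p = 0.0032). The Txnip call was lost without the anti-PD-L1 library (-0.36, edgeR adjusted p = 0.17), by DESeq2, without the library term, after thinning and when cells were split by Id2. It was 1 of 2 regulators tested of 9 listed. In CD4 cells it was not called (-0.63, edgeR adjusted p = 0.069). Of the 7 pentose phosphate genes, 6 were tested in CD8 and 4 in CD4 cells and 0 were called.

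Cycling effector T cells, those with UMIs of the division genes Mki67 or Top2a, held more Gapdh than the other effector T cells. There were 3, 18, 30 and 33 cycling and 29, 91, 243 and 388 other effector cells, with both lineages pooled. Of all cycling T cells, effector or not, 1, 2, 10 and 14 were CD4 and 11, 25, 29 and 23 were CD8. Their member sums were 22.3, 47.7, 75.5 and 48.9 in CD4 and 40.1, 62.9, 41.9 and 46.0 in CD8 cells. No cycling fit was made within a lineage. Gapdh was at 15.1, 27.0, 23.5 and 18.7 UMIs per 10000 in cycling and at 9.25, 12.1, 12.02 and 12.6 in other effector cells. Every cycling value was above every other value, and the untreated value rests on 3 cells and 12 UMIs. Over the 3 treated libraries the log2 fold change was 0.86 (SE 0.15, n = 3 libraries, edgeR adjusted p = 2.5e-05), higher in 3 of 3.

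Gapdh was the only member called of 9 tested in the cycling comparison, where 6.46% of 3112 genes were called, 4.05% higher and 2.41% lower. All 9 log2 fold changes were positive, with a median of 0.38. Pkm was next to the threshold, at 3.77, 7.40, 6.49 and 6.13 UMIs per 10000 in cycling and 2.31, 4.63, 3.66 and 5.54 in other effector cells. It was higher in cycling cells of each library, with a log2 fold change of 0.50 (95% interval 0.16 to 0.85, edgeR adjusted p = 0.071), and was called without the PDOX library (0.68, edgeR adjusted p = 0.048). Summed over the 10 genes, cycling cells were at 36.5, 68.0, 54.7 and 47.1 and other effector cells at 28.9, 39.4, 35.8 and 41.2. These sums pool UMIs, so cells with more UMIs weigh more. Over all cycling T cells, effector or not, the pooled sum was 39.1, 62.6, 52.5 and 47.0. The median level per cell was 36.9, 47.0, 45.5 and 45.1, so per cell the treated libraries lay close together. Cycling cells were also deeper, with a median of 2630 UMIs against 1919. With cells thinned to 750 UMIs, Gapdh was still called, while Aldoa, Eno1 and Ldha turned to -0.17, -0.06 and -0.08.

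Natural killer (NK) cells, B cells and monocytes that had passed the T cell isolation were gated on their own genes and the absence of Cd3 UMIs. The NK gate held 14, 5, 31 and 15 cells, the B gate 30, 51, 7 and 34, and the monocyte gate 9, 30, 9 and 33. Summed NK genes were at 71.8 to 94.6 UMIs per 10000 in the NK gate and at 1.44 to 4.25 in CD8 effector cells, and Cd3 was 0 by the rule. No doublet caller was run, and the gates left out only cells with more than 1 UMI of another leukocyte list they name, with no limit on platelet or erythroid genes.

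NK cells held less Gapdh than CD8 effector cells. Gapdh was at 6.51, 3.82, 5.81 and 5.34 UMIs per 10000 in the NK gate, below all 4 CD8 effector values. The log2 fold change was -0.997 (SE 0.23, n = 3 libraries with at least 10 NK cells, edgeR adjusted p = 0.00019), lower in 3 of 3. It was the only member called lower of 5 tested, where 9.27% of 820 genes were called lower and 9.51% higher. Eno1 was at 5.58, 5.73, 6.39 and 10.3 in NK cells with a log2 fold change of 0.50 (edgeR adjusted p = 0.089), and Ldha at 4.18, 3.82, 3.10 and 5.34 with -0.52 (edgeR adjusted p = 0.13). The member sum was 28.8, 26.7, 27.3 and 30.9. With library totals in place of the TMM factors 38.2% in place of 50.6% of the called genes were higher in NK cells, and Gapdh remained lower.

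B cells had a lower member sum than naive T cells, at 25.5, 21.4, 26.6 and 19.7 UMIs per 10000 against 34.7, 35.0, 32.9 and 36.2 in naive T cells of both lineages. All 4 B values lay below all 4 naive T values. Of 8 members tested over the untreated, anti-PD-L1 and PDOX libraries, 5 were called lower, where 10.9% of 3246 genes were. Ldha was at 3.68, 3.48, 2.21 and 2.92 in B cells and at 6.99, 7.31, 6.61 and 7.24 in naive T cells (log2 fold change -0.99, SE 0.20, n = 3 libraries, edgeR adjusted p = 0.00025). The groups were far apart, and Ldha was the member still called when the anti-PD-L1 library was left out. DESeq2 called 0 of the 8 members, with adjusted p = 0.073 for Ldha.

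Eno1 was at 4.21, 3.33, 0.738 and 3.16 UMIs per 10000 in B cells and 5.93, 6.20, 5.75 and 6.94 in naive T cells (log2 fold change -0.75, edgeR adjusted p = 0.0071). Pkm was at 3.68, 2.27, 3.69 and 2.43 against 4.69, 4.85, 4.39 and 4.97 (-0.74, edgeR adjusted p = 0.022), and Gapdh at 6.58, 6.21, 7.38 and 4.63 against 9.11, 9.07, 8.88 and 9.48 (-0.56, edgeR adjusted p = 0.018). None of these ranges overlapped between B and naive T cells, but the share of all genes that separate in this way was not computed. The anti-OX40/CpG values, outside the fit, rest on 7 B cells with 1 UMI of Eno1, 5 of Pkm and 10 of Gapdh. In the untreated library the counting intervals of the ratios of Eno1, Pkm and Gapdh held 1. Pgk1 gave 3, 1, 0 and 0 UMIs in B cells (-1.76, edgeR adjusted p = 0.032). Aldoa, Pgam1 and Tpi1 were not called, at -0.31, 0.46 and 0.49. Without the anti-PD-L1 library 1 member and without the PDOX library 3 members were called. Platelet genes summed to 0 to 44.6 UMIs per 10000 in the B gate and erythroid genes to 1.67 to 15.3, and their part in the result was not tested. B cells were also shallow, with a median of 1184.5 UMIs.

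Monocytes showed a mixed pattern against naive T cells, with Tpi1, Pgam1, Pkm, Gapdh and Aldoa higher and Ldha lower. The fit used the anti-PD-L1 and PDOX libraries, which held at least 10 monocytes each, so it rests on n = 2. Of 8 members tested, 5 were called higher and 1 lower, where 40.9% of 3825 genes were called, 22.7% higher and 18.2% lower. Pkm was at 7.70, 7.09, 8.41 and 8.02 UMIs per 10000 in the monocyte gate (log2 fold change 0.80, SE 0.18, edgeR adjusted p = 4.9e-05), above all naive T values.

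Tpi1 was at 2.34, 1.59, 1.77 and 1.90 UMIs per 10000 in monocytes and 0.625, 0.701, 0.472 and 0.329 in naive T cells (log2 fold change 1.79, SE 0.40, edgeR adjusted p = 3.2e-05). Pgam1 was at 0.669, 2.15, 1.33 and 1.90 against 0.673, 0.911, 1.08 and 1.15 (1.22, edgeR adjusted p = 0.00075), with the untreated monocytes, 2 UMIs, no higher than naive T cells. Ldha was at 3.68, 4.20, 2.21 and 4.08 in monocytes, below all naive T values (-0.63, edgeR adjusted p = 0.0053). Gapdh (0.57, edgeR adjusted p = 0.0022) and Aldoa (0.47, edgeR adjusted p = 0.032) were lost when library totals replaced the TMM factors. That scaling moved the median of all genes by -0.21, from -0.07 to -0.28, and the share of higher genes among those called from 55.5% to 44.0%, so the 3 members Tpi1, Pgam1 and Pkm and the lower Ldha are the calls that both scalings gave. By DESeq2 only Tpi1 was called in this comparison, with adjusted p = 0.16 for Pgam1, 0.087 for Pkm and 0.35 for Ldha.

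**Figure D3:**
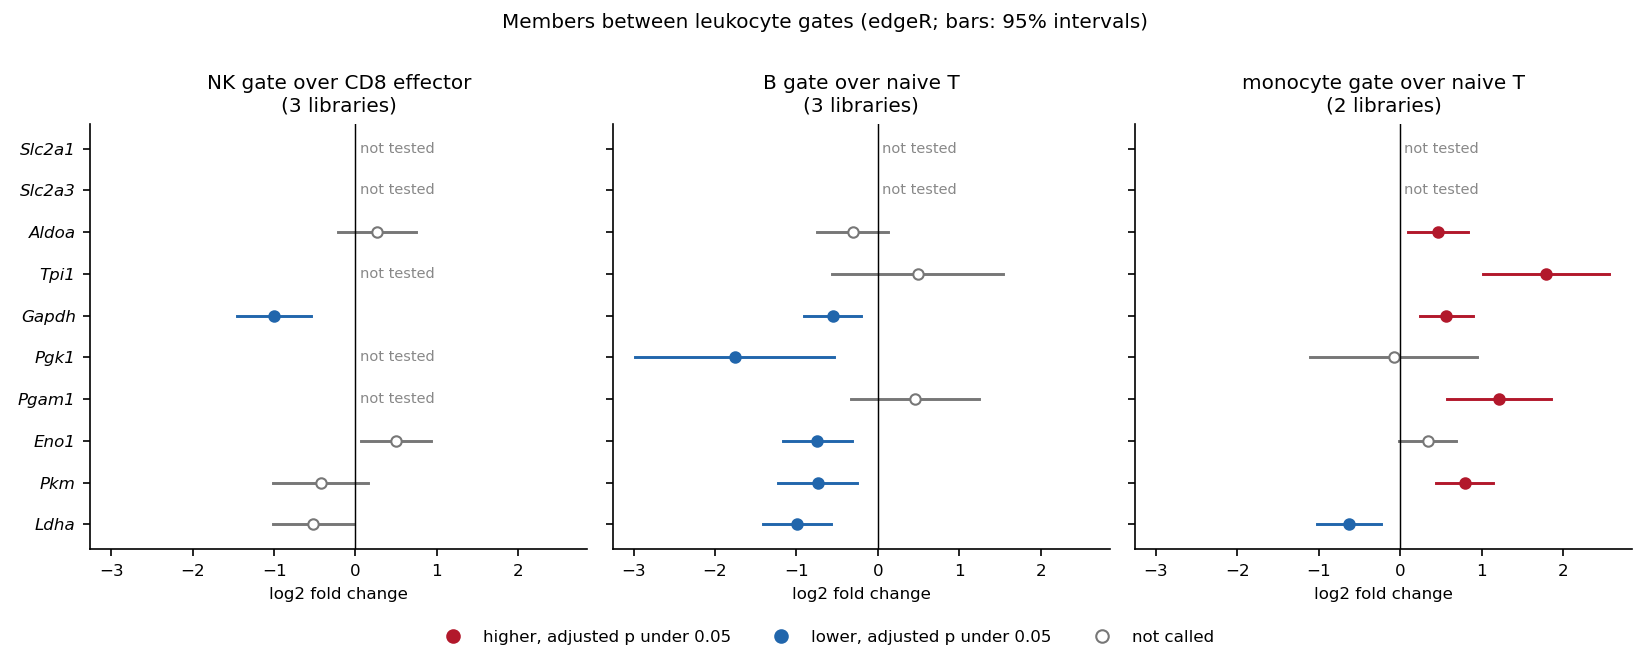
Log2 fold changes with 95% intervals of the members in NK cells against CD8 effector cells, B cells against naive T cells and monocytes against naive T cells, from edgeR fits over 3, 3 and 2 libraries. Ldha lies below 0 in B cells (-0.99) and in monocytes (-0.63), while Tpi1 in monocytes lies at 1.79.

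Between treatments each value is 1 library against 1 library, so there is no replicate check and no test, and all intervals cover counting error only. Over all T cells the member sum of the 3 treated libraries was 1.08, 0.990 and 1.13 times that of the untreated library (95% intervals 1.04 to 1.13, 0.951 to 1.03 and 1.08 to 1.17). Gapdh was 1.16, 1.13 and 1.30 times that of the untreated library. These ratios mix cell states: effector cells gave 11.6%, 28.4%, 38.2% and 67.6% of the classed CD8 UMIs and 14.4%, 15.2%, 41.2% and 69.6% of the classed CD4 UMIs. With naive and effector cells weighted as in the untreated library, the PDOX ratio of Gapdh moved from 1.36 to 1.14 in CD8 and from 1.27 to 1.07 in CD4 cells.

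Within CD8 naive cells Pgk1 was lower in the treated libraries, while the member sum stayed close to the untreated one. The sum of the treated libraries was 1.01, 0.930 and 1.01 times the untreated sum. Of the members with at least 50 UMIs when both libraries were added (8, 7 and 6), Pgk1 alone lay past 1.5-fold in each comparison, on the lower side, where 5.58%, 6.32% and 6.08% of genes did so, and 5.15%, 5.53% and 5.4% lay past it on the higher side. Below that limit, the PDOX ratio was 0.446 for Tpi1 (5 against 19 UMIs, 95% interval 0.130 to 1.24) and 1.62 for Pgam1 (22 against 23 UMIs, 0.862 to 3.04). The 3 comparisons share the untreated library. In CD4 naive cells 5 members reached the limit, and 0 lay past 1.5-fold, where 6.98%, 8.25% and 7.41% of genes did so on the higher and 4.13%, 5.92% and 7.02% on the lower side.

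In CD8 effector cells the anti-PD-L1 library stood highest, with a member sum 1.41 times the untreated one (95% interval 1.20 to 1.67), against 1.01 for anti-OX40/CpG (0.857 to 1.20) and 1.22 for PDOX (1.04 to 1.44). The untreated class held 25 cells and 162 UMIs of the members. Among effector T cells of both lineages without UMIs of Mki67 or Top2a, the member sum was 28.9, 39.4, 35.8 and 41.2 UMIs per 10000. There the PDOX library stood highest. This set adds CD4 cells, so its order mixes lineage with the removal of cycling cells. All CD4 effector cells, 7, 15, 77 and 169 in number, had sums of 22.0, 50.1, 53.9 and 44.7. The CD8 effector cells numbered 25, 94, 196 and 252. Past 1.5-fold on the higher side were 3 of 6 members in the anti-PD-L1 library (Aldoa, Pgam1 and Pkm), 1 of 6 in the anti-OX40/CpG library (Aldoa) and 2 of 6 in the PDOX library (Aldoa and Pkm), where 17.8%, 15.1% and 20.7% of genes were. On the lower side 0 members lay past 1.5-fold, where 14.2%, 13.8% and 14.8% of genes did. Of the ratios named, only those of Aldoa for anti-PD-L1 (2.15, 95% interval 1.23 to 4.12) and PDOX (1.99, 1.15 to 3.80) had intervals above 1. Aldoa was at 2.63, 5.66, 4.15 and 5.25 UMIs per 10000, with 13 UMIs in the untreated cells. Leaving out cells with more than 2900 genes lowered the anti-PD-L1 ratio of the sum to 1.16 (0.978 to 1.37), an interval that held 1. In CD4 effector cells all 2, 5 and 5 members that reached the limit lay past 1.5-fold on the higher side, as did 43.2%, 57.6% and 59.2% of all genes read (17.6%, 8.25% and 7.87% lay past it on the lower side), and the untreated class held 7 cells.

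**Figure D4:**
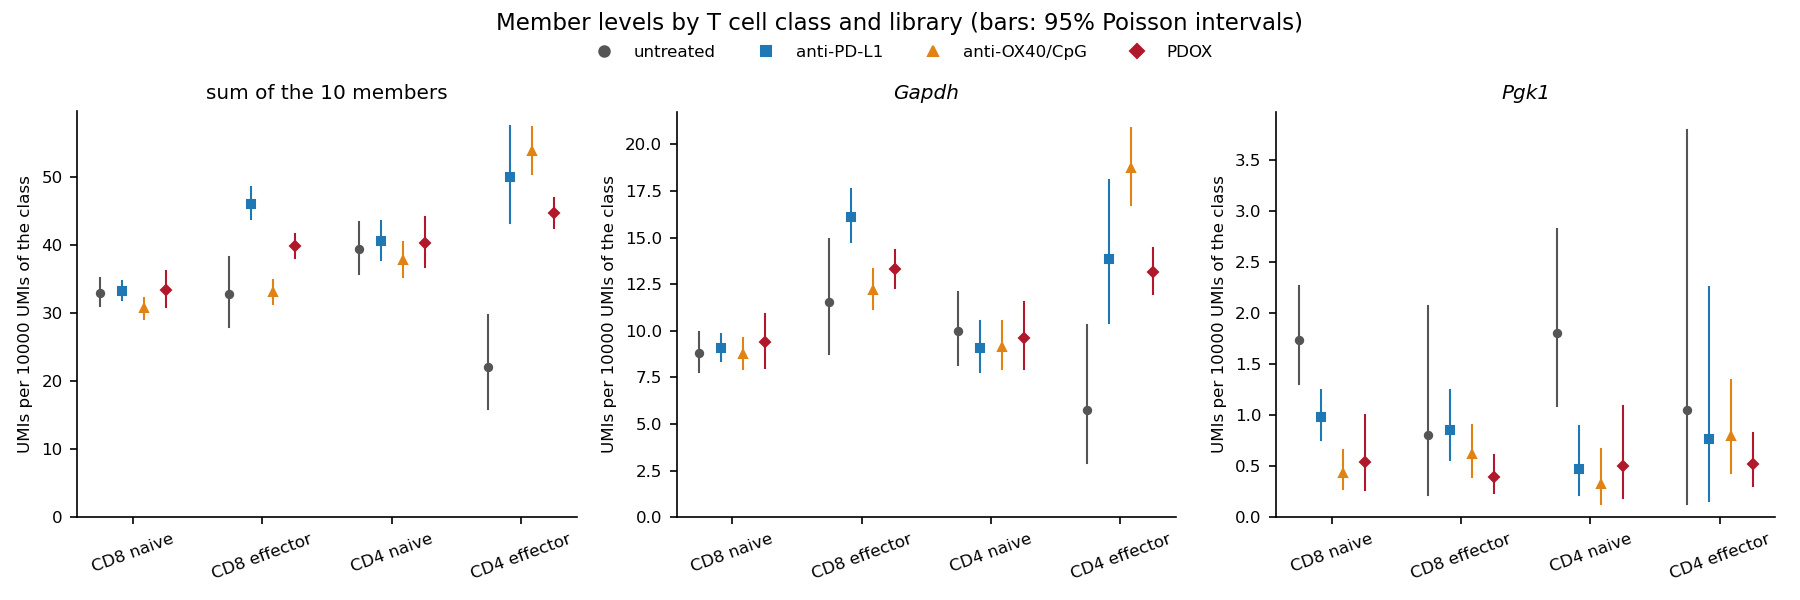
Level (UMIs per 10000 UMIs of the class) of the member sum, Gapdh and Pgk1 in CD8 and CD4 naive and effector cells, with 1 point per library and bars for the 95% exact Poisson interval, which covers counting error only. In CD8 naive cells Pgk1 lies at 1.74 in the untreated library and at 0.437 to 0.977 in the treated libraries, while the sum lies at 30.7 to 33.5 in all 4.

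Pgk1 was higher in the untreated library than in the treated ones across most classes. Over all kept cells its level was 1.39, 0.824, 0.452 and 0.417 UMIs per 10000 (170, 229, 118 and 106 UMIs). In CD8 naive cells it was 1.74, 0.977, 0.437 and 0.545, on 54, 65, 22 and 10 UMIs. In CD4 naive cells it was 1.81, 0.470, 0.324 and 0.498, on 19, 9, 7 and 6 UMIs. The untreated library was the highest in each case.

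The CD8 naive ratio of Pgk1 to untreated was 0.563 for anti-PD-L1 (95% interval 0.386 to 0.823), 0.252 for anti-OX40/CpG (0.146 to 0.420) and 0.314 for PDOX (0.143 to 0.623). In CD8 effector cells, with 4 untreated UMIs, the levels were 0.809, 0.854, 0.614 and 0.395, and the untreated library was not the highest. Over 11 classes that share no cell, Pgk1 was highest in the untreated library in 10 and in the anti-PD-L1 library in 1. Of the 4062 genes with at least 300 UMIs in these classes, 11 (0.271%) were highest in the untreated library in at least 10 classes, and Pgk1 was the only member among them. This measure was chosen after its values were seen. The classes come from the same 4 libraries, so their orders are not independent of each other. The untreated Pgk1 counts were 2 UMIs in CD4 effector cells, 3 in B cells, 4 in NK cells and 6 in monocytes. The member sum was highest in the PDOX library in CD8 naive and in the anti-PD-L1 library in CD4 naive cells. The weighting of cell states left the CD8 ratios of Pgk1 at 0.562, 0.309 and 0.353.

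The untreated library that was high in Pgk1 was also the library with the most hemoglobin UMIs. The part of red cell RNA in the Pgk1 level was not tested. The anti-PD-L1 library had the lowest hemoglobin share, 0.344%, and the second highest Pgk1 level. Eno1b, a near copy of Eno1, was at 0.359, 0.198, 0.107 and 0.110 UMIs per 10000 in the same order of libraries, while Eno1 was at 6.43, 6.33, 5.81 and 6.66.

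How the members varied together was read over 15 profiles, the naive and effector classes of CD8 and CD4 cells with at least 10 cells in each library. The rank correlation of each member with the sum of the others was highest for Ldha (0.79), Eno1 (0.74) and Pkm (0.69) and lowest for Slc2a3 (0.18), Pgam1 (0.09) and Pgk1 (-0.07). Gapdh and Tpi1, the members called between naive and effector cells in both lineages, lay between, at 0.45 each. Profiles of 1 library share their depth and preparation, so these values describe the profiles and carry no p. Among 1343 other genes with at least 500 UMIs, the 5 with the highest rank correlation with the member sum were Pdia3 (0.91), Atp5f1 (0.88), Pycard (0.87), Itgb7 (0.87) and Tmed2 (0.86).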

How the data were processed

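Blood T cells of 4 libraries, 1 per treatment, were measured by droplet single-cell RNA sequencing. The authors used the 10x Chromium Single Cell 3' kit (version 2) and Cell Ranger 2.1.1 and deposited whole UMI counts per gene and cell, not normalized. The submitters' processing notes name mm10 and Seurat 2. The annotation and the number of mice per library are not given in the sources used here.

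Cells with at least 200 genes were kept, and 13 mitochondrial, 102 ribosomal protein and 10 hemoglobin genes were left out. The libraries held 2392650 to 4969885 deposited UMIs, and a level of 1 per 10000 is below 1 UMI per cell. Levels carry exact Poisson and ratios exact conditional binomial 95% intervals, which cover counting error only. Counts were summed per class and library where at least 10 cells were present, and classes of the same libraries were compared with edgeR 4.0.16 (R 4.3.3, TMM, quasi-likelihood test, library as a term, genes passing filterByExpr, Benjamini-Hochberg adjustment, threshold 0.05), with the genes that define the classes left out. The libraries had different treatments and served as replicates of the class difference. The p-values therefore measure the spread between the libraries of each fit. These were 4 for CD8 effector against naive cells, 2 for monocytes and 3 for the other fits. The libraries pair the classes because both come from the same blood. DESeq2 1.42.0, other scalings and filters, thinning to 750 UMIs and leaving out each library were tried as alternatives. The fit was tested on simulated counts. Levels and figures used Python 3.11.15 with numpy 2.4.6, scipy 1.17.1 and pandas 2.3.3.

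The 10 members, the other pathway lists and the marker lists were chosen with earlier results of these data known. Named were all members, pathway genes called in CD8 or CD4 effector against naive cells, and the 5 genes most like the member sum. Treatments had 1 library each and were not tested. Other experiments of the study were not used here.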

Additional observations from a re-analysis of the deposited data

How the results depend on the processing

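Of 753 values of single genes under the alternatives, 644 kept direction and side of the threshold, 71 lost the call, 8 gained it and 30 turned direction, none of them a called value. Of 231 counts of calls 45 moved by over 1.5 times, and of 90 treatment ratios 13 moved beyond their interval and 0 turned. The scalings by library totals, with and without class-defining genes, the thinning of the cycling comparison and the minimum of 5 cells in the NK, B and monocyte fits were chosen after seeing the data. Sets of members called are limited by depth, since Slc2a1 was never tested and Slc2a3, Pgk1 and Tpi1 rest on few UMIs. The causes of the shifts were not tested.

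DESeq2 called fewer genes: 413 (CD8 effector against naive), 145 (CD4), 1 (lineage difference), 52 (cycling), 82 (NK), 335 (B) and 642 (monocyte), with 1 CD8 member, 0 CD4 and B members, and 1 higher and 0 lower monocyte members. Thinning gave 347, 218 and 24 genes (CD8, CD4, cycling) and 1 member each in CD8 and CD4, of 6 and 5 tested. Splitting by Id2 gave 576 CD8 genes, and 154 genes and 0 members in CD4. Without the filter on low counts there were 316 cycling and 275 NK genes, 2 lower NK and 3 higher monocyte members. With mitochondrial, ribosomal and hemoglobin genes kept, 273 NK genes, 2 cycling members and 1 higher NK member were called. Class-defining genes in the totals gave 2 CD8 members, library totals 3 higher monocyte members, and the 5-cell minimum 2 lower B members. Without the library term as a block for the pairing, 1 CD4 member, 0 genes of the lineage difference, 79 cycling and 93 NK genes were called.

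Leaving out 1 library gave 714 to 1203 genes and 2 to 4 members (CD8), 53 to 412 and 0 to 2 (CD4), 3 to 13 genes (lineage difference), 112 to 198 and 1 to 2 (cycling), 82 to 219 genes (NK) and 461 to 698 and 1 to 4 (B), and was not run for the 2 libraries of the monocyte fit. The summed treatment ratio became 1.36 (CD8, PDOX), 1.73 (CD8 effector, anti-PD-L1), 1.51 (CD8 effector, PDOX) and 1.30 (CD4, PDOX) over all UMIs. Without cells over 2900 genes it was 1.06 (CD8) and 1.16 (CD8 effector) for anti-PD-L1. Thinned, it was 0.852 (CD8), 0.805 (CD8 naive), 1.05 (CD4) and 1.48 (CD4 effector) for anti-OX40/CpG and 1.42 (CD4 effector) for PDOX. Without Gapdh it was 0.887 and 1.07 (CD8, anti-OX40/CpG and PDOX).

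Uncalled log2 fold changes turned as follows, with the range over the fits that left out 1 library where these turned. In CD8 they were Pgk1 (-0.30 to 0.11; 0.31 by Id2), Aldoa (-0.067 to 0.20; -0.011 with class-defining genes) and Eno1 (-0.0022 thinned). In CD4 they were Pkm (-0.016 to 0.035; -0.022 without the library term, -0.036 with class-defining genes, -0.30 by Id2, -0.031 without large cells, -0.13 with 5 cells) and Aldoa (-0.062 to 0.11; -0.017 with class-defining genes, -0.10 thinned). In the lineage difference they were Slc2a3 (-0.30 to 0.67; -0.026 with library totals, -0.050 without the filter, -0.32 without the library term), Aldoa (-0.0016 to 0.45), Eno1 (-0.17 to 0.17; 0.0038 without the library term) and Gapdh (-0.20 to 0.24). In the other fits they were cycling Slc2a3 (-0.44 to 0.90), cycling Eno1, Ldha and Aldoa (-0.062, -0.078 and -0.17 thinned), NK Aldoa (-0.061 to 0.50; -0.10 without the filter) and monocyte Pgk1 (0.018 with 5 cells).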

Other observations

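CD4 cells with UMIs of Foxp3, the defining factor of regulatory T cells, were few, at 3 cells in the untreated library, 3 with anti-PD-L1, 7 after anti-OX40/CpG and 15 with PDOX. The summed level of the 10 members was 43.2, 82.0, 53.3 and 51.4 UMIs per 10000 in them, against 39.5, 40.7, 37.8 and 40.4 in CD4 naive cells of the same libraries. Each Foxp3 value was above the naive value of its library, by 1.09, 2.02, 1.41 and 1.27 times, and the 95% counting interval held 1 in the untreated library. These cells may also be counted among the naive or effector CD4 cells, and no test was made.

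Ldha was highest in the anti-PD-L1 library in 8 and Pkm in 6 of 11 classes that share no cell, and the other members in 0 to 5. How many of all genes reach such counts was not computed. The classes come from the same 4 libraries, so the counts describe these libraries only. Over all T cells the Ldha ratio of the anti-PD-L1 to the untreated library was 1.09 (95% counting interval 1.001 to 1.20). Per cell, the median number of UMIs of the 10 members was 5 in CD8 naive, 6 in CD8 effector, 6 in CD4 naive and 8 in CD4 effector cells, and 10 in cycling T cells.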
